A study of Homo sapiens with 6 samples.

Results

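Cholesterol genes were followed in human fibroblasts with an active Ras oncogene, depleted of the long noncoding RNA sin-lncRNA. The set holds 34 genes named for their role, and all 34 were found by symbol among the 57819 genes of the deposited table. It comprises 19 genes of synthesis, 6 of the sterol-sensing SREBP2 machinery, 5 of uptake, transport and storage, and 4 of the LXR efflux arm. It does not hold every gene of the pathway. All 34 passed the filter of a mean of at least 10 normalised reads, so every member was tested.

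RNA came from IMR90 human lung fibroblasts carrying ER:Ras, an oncogenic Ras that 4-hydroxytamoxifen (4OHT) turns on through its receptor domain. Every library was from cells given 200 nM 4OHT for 3 days, and cells without 4OHT were not analysed here. Control cells received the scrambled siRNA siSCR and knockdown cells an siRNA against sin-lncRNA, named si1 in the labels, with 3 polyA libraries per group. The table's columns add a further number to that name, and whether 1 siRNA or a pool was used is not given in the sources used here. Without another independent siRNA, effects of losing sin-lncRNA and other effects of that siRNA cannot be told apart. The labels do not say whether replicates were separate cultures, so the p-values measure only the spread between these libraries.

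Library totals ran from 30271192 to 50913672 reads in controls and from 22117324 to 27882280 in knockdowns, so the deepest knockdown library was below the shallowest control. The target, listed as RP4-530I15.6, read 3.70, 4.73 and 4.09 RPM (reads per 1000000 of the effective library size) in controls and 0.493, 0.640 and 0.534 in knockdowns. It fell to 13.3% of control without overlap (4.17 ± 0.52 to 0.556 ± 0.076 RPM; SD, n = 3; log2 fold change -2.86, limma adjusted p = 7.9e-07). All 11 fibroblast markers were above 1 RPM, and their summed level was 17485 to 19514 RPM in controls and 13725 to 14812 in knockdowns. Without overlap between groups, 5 of the 11 were lower, COL1A1 and COL1A2 among them, and 5 were higher, COL3A1 and PDGFRA among them. Among all 19048 genes tested, 28.5% were lower and 22.6% higher without overlap. Of 16 markers of epithelial, endothelial, leukocyte and liver cells, only KRT19 (3.66 to 6.31 RPM in controls, 1.70 to 2.28 in knockdowns) and VWF (1.67 to 1.83 and 2.20 to 2.60) exceeded 1 RPM in any library. What these shifts in depth and markers contribute to the results was not tested, except that thinning all libraries to the smallest total left 24 of 34 members changed, against 25 without thinning. In bulk RNA, fewer cells making a transcript and less transcript per cell cannot be told apart.

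Cells make cholesterol from acetyl-CoA by way of mevalonate, the prenyl diphosphates, squalene and lanosterol. When sterols in the endoplasmic reticulum run low, SCAP carries the precursor of the transcription factor SREBP2 to the Golgi, where the proteases MBTPS1 and MBTPS2 free its active part, which switches on genes of synthesis and uptake. When sterols are plentiful, the INSIG proteins hold SCAP back, and oxysterols activate the LXR receptors, which drive export pumps such as ABCA1 and ABCG1.

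The synthesis genes were lower almost throughout the pathway, and both LXR receptor genes were lower, while neither export pump was called. After a correction for GC content and length ABCA1 passed as lower (log2 fold change -0.16), and ABCG1 had few reads (49 to 123 per library). Of the 19 synthesis genes 18 fell and 1, GGPS1, rose (limma, Benjamini-Hochberg adjusted p under 0.05 over all 19048 genes tested). Their median log2 fold change was -0.58, against -0.04 for all genes tested. Of the 15 other members 4 fell, 2 rose and 9 did not pass, with a median of -0.08. The background is wide: 41.0% of all genes passed the same threshold, 23.5% as lower and 17.5% as higher. The libraries of the 2 groups did not overlap for 25 of 34 members, 22 of them lower and 3 higher, against 51.1% of all genes, 28.5% lower and 22.6% higher. A called fall to less than 50% of control, a log2 fold change under -1, was seen in 4 members (TM7SF2, ACAT2, CYP51A1 and SREBF2) and in 1.25% of all genes. CYP51A1 and SREBF2 lay near that cutoff, both at -0.98 with quantile scaling of the libraries.

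**Figure D1:**
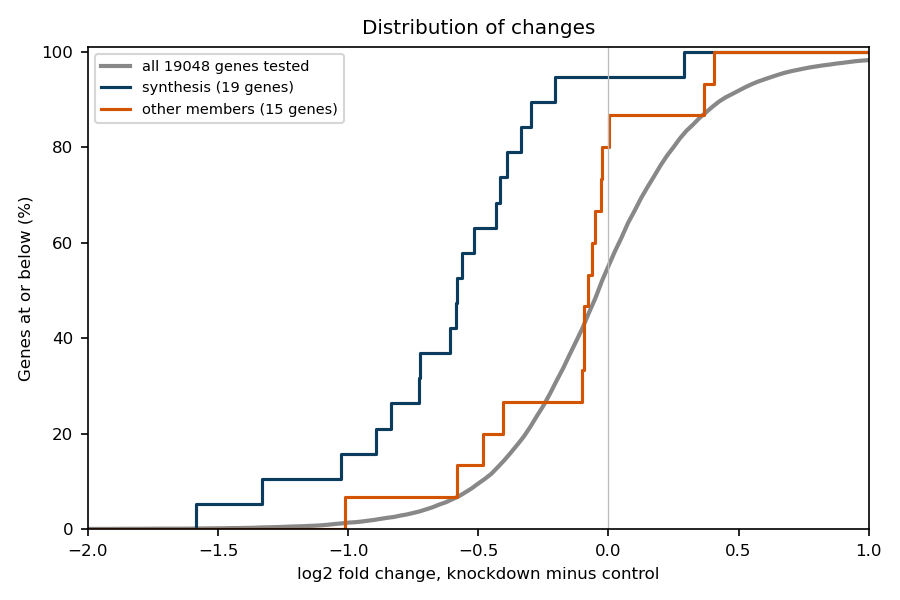
Cumulative share of genes (y axis, percent) at or below each log2 fold change (x axis, knockdown minus control) for all 19048 genes tested, the 19 synthesis genes and the 15 other members. The synthesis curve lies left of the curve for all genes, with medians of -0.58 and -0.04, while the other members have a median of -0.08.

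Promoter sequence is shown for 5 members: SREBF2 and 2 enzymes that fell, and INSIG1 and ABCA1, for which no change was called in the main fit. The 2 enzymes, MSMO1 and NSDHL, hold several matches to the sequence CCAAT and do not stand for all synthesis genes. The sequences are from RefSeq on GRCh38.p14, written 5′ to 3′ toward the gene, and all lie before the annotated start. Capitals mark the searched motifs on either strand: the sterol element TCACNCCAC in SREBF2, its shorter form TCACNCCA in MSMO1, the NF-Y box CCAAT in SREBF2, MSMO1, NSDHL and INSIG1, the E-box TCACGTGA in INSIG1, and, in ABCA1, a DR4 element of the kind LXR binds, a pair of half-sites with any 4 bases between. Its half-sites were searched in the form known from ABCA1 itself, so that match is no finding. GGGCGG is not marked.
SREBF2, chr22:41832955-41833024, plus strand: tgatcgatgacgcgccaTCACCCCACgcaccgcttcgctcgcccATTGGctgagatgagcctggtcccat
MSMO1, chr4:165327473-165327643, plus strand: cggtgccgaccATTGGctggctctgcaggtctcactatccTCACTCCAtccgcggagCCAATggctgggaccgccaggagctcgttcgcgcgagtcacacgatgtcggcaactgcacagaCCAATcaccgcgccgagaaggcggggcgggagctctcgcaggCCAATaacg
NSDHL, chrX:152830913-152830991, plus strand: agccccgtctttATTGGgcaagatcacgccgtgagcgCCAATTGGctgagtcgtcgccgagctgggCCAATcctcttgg
INSIG1, chr7:155297698-155297837, plus strand: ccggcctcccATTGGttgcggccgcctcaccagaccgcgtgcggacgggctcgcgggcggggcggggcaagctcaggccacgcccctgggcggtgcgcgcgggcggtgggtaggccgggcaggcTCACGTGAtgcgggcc
ABCA1, chr9:104928187-104928265, minus strand: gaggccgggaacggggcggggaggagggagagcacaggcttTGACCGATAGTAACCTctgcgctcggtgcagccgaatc

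Motifs were searched on both strands in the 250 bases before each start, and 30 of the 34 members had a promoter entry, 16 of them synthesis genes. ACAT2, FDFT1, SQLE and ABCG1 had no entry. A gene with several entries was counted if any of them held the motif. CCAAT, the box bound by NF-Y, a partner of SREBP2 at many sterol promoters, was present in 14 of the 16 synthesis genes. It was in 7 of the 14 other members, against 37.0% of all 27305 genes with an entry. CYP51A1 and PMVK, which fell, lacked it, and GGPS1, which rose, had it. The sequence GGGCGG, bound by Sp1, was in 15 of 16 and 12 of 14, against 46.2%. The sterol element TCACNCCAC was found among members in SREBF2 alone and in 1.09% of all genes. Its shorter form TCACNCCA, which overlaps it, was in MSMO1, MVK and SREBF2 (3.92% of all genes), and TCACNCGAC in FDPS and HSD17B7 (0.297%). TCACGTGA was in INSIG1 (1.04%). The perfect DR4 repeat of AGGTCA was in none of the 30 (0.0183% of all genes). A match describes letters in this window only and not binding.

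SREBF2, the gene of SREBP2 itself, was lower by about the same amount in every knockdown library. SREBF2 stood at 239, 219 and 219 RPM in controls 1 to 3 and at 114, 110.1 and 111 RPM in knockdowns 1 to 3. The groups were far apart, and the knockdown mean was 49.6% of control (226 ± 11.3 to 112 ± 2.09 RPM; SD, n = 3). The log2 fold change was -1.01 (SE 0.05; limma adjusted p = 1.3e-07), and it ran from -1.03 to -0.97 over 17 other fits. SREBF2 (ENSG00000198911.7) lies on chromosome 22 from 42229109 to 42303312 on the plus strand of hg19, the build named in the submitters' processing notes. The microRNA gene MIR33A, listed inside it on the same strand, had 0 reads in every library of this polyA RNA, where a count of 0 allows up to 0.0589 to 0.136 RPM depending on depth.

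Of the other 5 genes of this machinery 1 rose and 4 did not pass, against 41.0% of all genes called in either direction. MBTPS1, the protease that makes the opening cut, rose. It read 149.6, 143 and 147 RPM in controls and 192, 193 and 197 in knockdowns, with no overlap, and its log2 fold change was 0.41 (SE 0.04; limma adjusted p = 2.0e-05). SCAP, the sterol-sensing escort, read 57.2, 51.6 and 56.7 RPM in controls and 47.3, 55.3 and 52.4 in knockdowns. These ranges overlapped, and the log2 fold change was -0.10 (95% CI -0.24 to 0.05; limma adjusted p = 0.28). MBTPS2, the protease of the later cut, also overlapped between groups, with a log2 fold change of -0.02 (95% CI -0.16 to 0.11), whose sign differed between fits.

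INSIG1, the sterol-sensing anchor whose gene SREBP2 normally drives, was not called. It read 117, 109 and 112 RPM in controls and 112, 102 and 109 in knockdowns. The groups overlapped, at 95.7% of control, with a log2 fold change of -0.06 (95% CI -0.17 to 0.05; limma adjusted p = 0.34). The lower end of that interval lies above the log2 fold change of each of the 18 synthesis genes that fell, the nearest being PMVK (-0.21, 95% CI -0.37 to -0.04). INSIG2, the related anchor, had a log2 fold change of -0.10 (95% CI -0.24 to 0.05; limma adjusted p = 0.28), with levels of 20.6 to 24.5 RPM over the 6 libraries. After a correction for GC content and length it was -0.17 and passed (limma adjusted p = 0.029). The difference in log2 level between SREBF2 and INSIG1, taken from the control mean, was 0.03, 0.00 and -0.03 in controls and -0.98, -0.89 and -0.98 in knockdowns. SREBF2 and INSIG1 therefore parted in each of the 3 knockdown libraries.

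**Figure D2:**
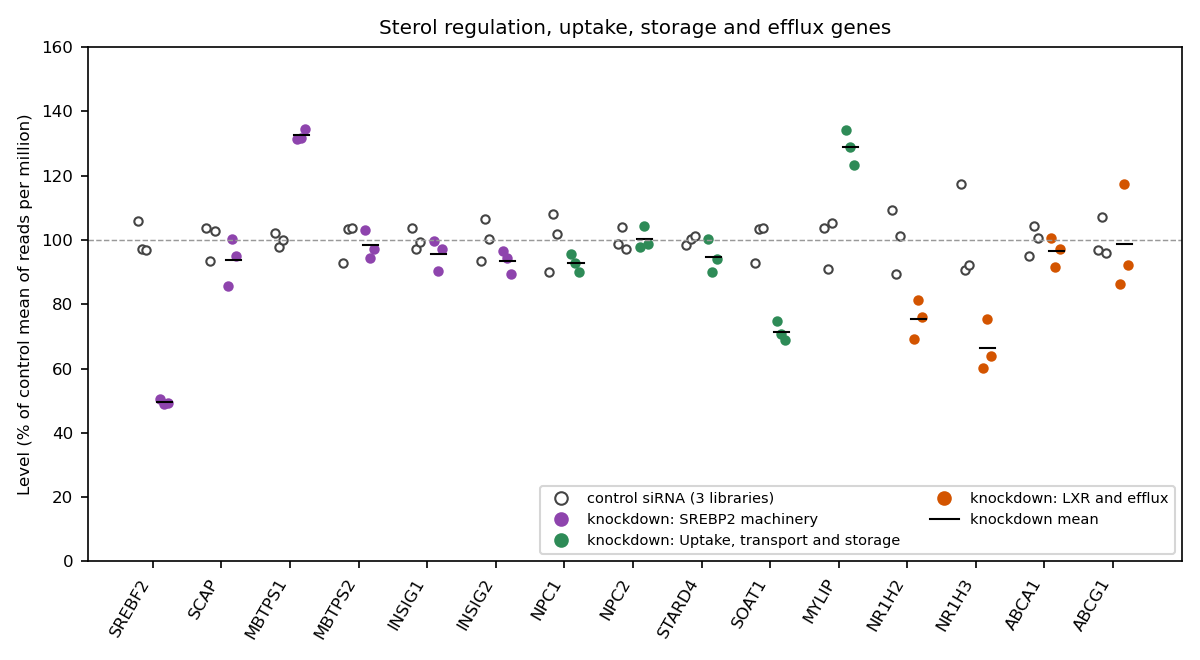
Level of 15 members in each library as a percentage of the control mean RPM (y axis), for SREBP2 machinery, uptake, transport and storage, and LXR and efflux genes (x axis). Open circles are controls, filled circles knockdowns and bars knockdown means. SREBF2 sits near 49.6% and MBTPS1 near 132%, while INSIG1, STARD4 and ABCA1 overlap their controls.

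The mevalonate steps fell in all 6 genes, with a median log2 fold change of -0.58 and a range from -1.33 to -0.21. Of all genes 23.5% were called as lower, and the call of PMVK held in only 5 of 17 other fits. ACAT2, the cytosolic thiolase that joins 2 acetyl-CoA units at the entry of the pathway, fell most. It read 54.9, 56.8 and 59.6 RPM in controls and 23.2, 21.9 and 22.9 in knockdowns. All knockdown values were under the lowest control, at 39.7% of control on average, and the log2 fold change was -1.33 (SE 0.05; limma adjusted p = 6.7e-08). ACAT2 overlaps TCP1 and SOD2 on the opposite strand, with TCP1 also lower (log2 fold change -0.56) and SOD2 higher (0.28), so part of its reads is uncertain.

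HMGCS1, the synthase that makes HMG-CoA, fell by less, the intervals of the log2 fold changes being -0.42 to -0.18 for HMGCS1 and -1.45 to -1.21 for ACAT2. It read 91.9, 103 and 98.6 RPM in controls and 81.8, 75.9 and 81.1 in knockdowns. The groups did not overlap, and the log2 fold change was -0.30 (SE 0.05; limma adjusted p = 0.0014), or 81.3% of control. IDI1, which isomerises isopentenyl diphosphate, read 116, 119.9 and 125 RPM in controls and 79.9, 78.7 and 81.9 in knockdowns. Its knockdown libraries lay close together, and its log2 fold change was -0.58 (SE 0.05; limma adjusted p = 3.9e-06).

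The kinases and the decarboxylase between them were lower as well. MVD, the decarboxylase, had the widest relative spread of the synthesis genes between knockdown libraries. It read 55.4, 45.3 and 56.1 RPM in controls and 26.5, 35.7 and 32.8 in knockdowns. The log2 fold change was -0.73 (SE 0.11; limma adjusted p = 0.00038). MVK, mevalonate kinase, averaged 22.0 ± 0.692 RPM in controls and 14.7 ± 1.94 in knockdowns (SD, n = 3; log2 fold change -0.58, SE 0.09). It overlaps MMAB on the opposite strand, which fell by less, at -0.30. PMVK, phosphomevalonate kinase, was the weakest call of the set. It read 20.9, 20.6 and 21.5 RPM in controls and 16.4, 19.5 and 18.8 in knockdowns, with no overlap and a log2 fold change of -0.21 (limma adjusted p = 0.047). That call was lost in 12 of 17 other fits, among them the one without knockdown replicate 1 (-0.13, limma adjusted p = 0.15) and the one corrected for GC content and length (-0.03, limma adjusted p = 0.75).

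At the prenyl diphosphates, where the route to sterols parts from that to protein prenylation, the 2 genes moved in opposite directions. FDPS, which makes farnesyl diphosphate, read 83.0, 85.4 and 85.7 RPM in controls and 65.5, 61.4 and 67.2 in knockdowns. FDPS fell without overlap (log2 fold change -0.39, SE 0.05, limma adjusted p = 0.00011). The 8 FDPS pseudogenes in the table held 40.3 ± 1.45 RPM in controls and 29.4 ± 1.04 in knockdowns, and gene and copies together stood at 75.3% of control, against 76.4% for the gene alone. GGPS1, which makes geranylgeranyl diphosphate for prenylation and not for sterols, was the only synthesis gene to rise. It read 35.6, 35.5 and 36.7 RPM in controls and 45.1, 44.9 and 41.9 in knockdowns, and every knockdown was above every control. Its log2 fold change was 0.29 (SE 0.05; limma adjusted p = 0.0013). ARID4B, which overlaps it on the opposite strand, was higher by a like amount (log2 fold change 0.35), and what it adds to the GGPS1 count was not tested.

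From squalene to cholesterol all 11 genes fell, against 23.5% of all genes called as lower, with a median log2 fold change of -0.61. FDFT1, squalene synthase and the committed step to sterols, read 248, 249 and 250.1 RPM in controls and 155, 144 and 152 in knockdowns. The controls lay very close together (SD 1.17 RPM), and the log2 fold change was -0.73 (SE 0.04; limma adjusted p = 5.5e-07). SQLE, the squalene epoxidase and a rate-limiting enzyme, read 129, 129 and 132 RPM in controls and 89.7, 87.9 and 95.2 in knockdowns. It fell without overlap (log2 fold change -0.51, SE 0.05, limma adjusted p = 9.3e-06). LSS, which closes the sterol rings to form lanosterol, averaged 126 ± 2.20 RPM in controls and 85.1 ± 4.74 in knockdowns (SD, n = 3; log2 fold change -0.56, SE 0.05).

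Removal of the lanosterol methyl groups begins with CYP51A1, the sterol 14-demethylase, whose count is low and uncertain. It read 8.84, 5.99 and 7.77 RPM in controls and 3.50, 3.71 and 3.70 in knockdowns (log2 fold change -1.03, SE 0.14, limma adjusted p = 0.00016) on 78 to 391 reads. The 3 pseudogenes of CYP51A1 held more reads than the gene, 25.9 ± 0.619 RPM in controls and 13.8 ± 0.949 in knockdowns. Gene and copies together stood at 52.2% of control, close to the 48.3% of the gene alone.

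TM7SF2, a sterol 14-reductase, had the largest fall of the 34 members. It read 19.8, 16.4 and 17.6 RPM in controls and 5.56, 6.66 and 5.66 in knockdowns. Knockdown levels were 33.2% of control (log2 fold change -1.59, SE 0.10, limma adjusted p = 9.1e-07). TM7SF2 overlaps VPS51 on the same strand, and VPS51 fell by much less (log2 fold change -0.43), so part of its reads is uncertain. LBR, the lamin B receptor, which carries the same reductase activity, rose instead: it read 32.0, 35.9 and 34.6 RPM in controls and 43.3, 40.8 and 41.0 in knockdowns. Its log2 fold change was 0.29 (SE 0.06; limma adjusted p = 0.0025), so these 2 genes of the same step were called in opposite directions. LBR belongs to a list of other pathway genes and was picked out after its values were seen.

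The demethylation complex that follows was lower in each part. MSMO1, the C4-methyl oxidase, read 152, 153 and 154 RPM in controls and 105, 97.8 and 98.5 in knockdowns (log2 fold change -0.61, SE 0.04, limma adjusted p = 2.6e-06). NSDHL, the decarboxylating dehydrogenase, read 55.7, 60.7 and 58.5 RPM in controls and 44.2, 41.3 and 44.1 in knockdowns (log2 fold change -0.43, SE 0.05, limma adjusted p = 0.0001). MSMO1 and NSDHL are the enzymes whose promoters with several CCAAT boxes are shown above. HSD17B7, the ketoreductase, averaged 8.27 ± 0.421 RPM in controls and 4.45 ± 0.317 in knockdowns (SD, n = 3; log2 fold change -0.89). With its 2 pseudogenes added it stood at 55.8% of control, against 53.7% alone.

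In the last steps EBP, the sterol isomerase, showed the larger fall and SC5D and DHCR7 smaller ones. EBP read 27.0, 26.7 and 26.8 RPM in controls and 15.7, 15.4 and 14.0 in knockdowns (log2 fold change -0.84, SE 0.07, limma adjusted p = 3.9e-06). SC5D, the C5-desaturase, averaged 87.2 ± 5.33 RPM in controls and 68.9 ± 2.06 in knockdowns (log2 fold change -0.34). DHCR7, which reduces 7-dehydrocholesterol, read 119, 119 and 117 RPM in controls and 87.3, 86.1 and 92.2 in knockdowns (log2 fold change -0.42, SE 0.04, limma adjusted p = 3.3e-05). No control library of these 3 genes reached down to a knockdown library. Among the 18 synthesis genes that fell, levels in the knockdown thus ranged from 33.2% of control for TM7SF2 to 86.9% for PMVK.

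**Figure D3:**
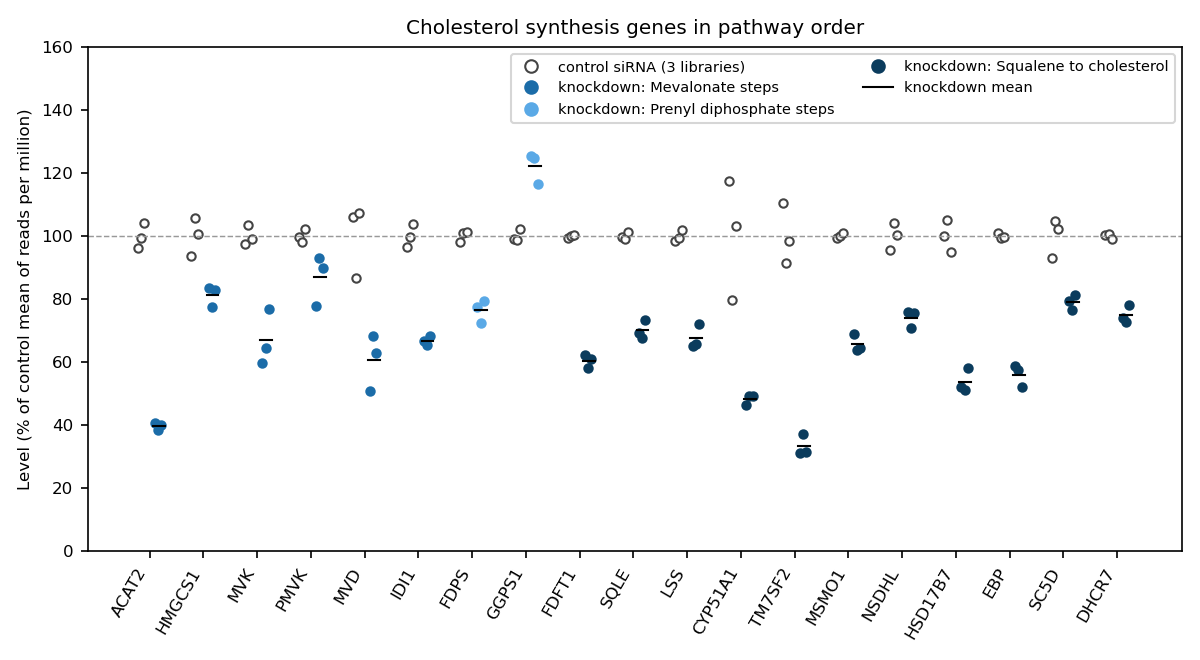
Level of the 19 synthesis genes in each library as a percentage of the control mean RPM (y axis), in the order of the pathway (x axis). Open circles are controls, filled circles knockdowns and bars knockdown means. All genes but GGPS1 (122%) lie below their controls, from 33.2% for TM7SF2 to 86.9% for PMVK.

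Of the 5 genes of uptake, transport and storage 1 fell, 1 rose and 3 did not pass. The called share, 2 of 5, lies near the 41.0% of all genes. SOAT1, which esterifies cholesterol for storage, read 75.1, 83.7 and 84.0 RPM in controls and 60.6, 57.2 and 55.8 in knockdowns. Every knockdown was under every control (log2 fold change -0.48, SE 0.06, limma adjusted p = 7.7e-05). MYLIP, an LXR target that marks lipoprotein receptors for degradation, read 5.40, 4.73 and 5.48 RPM in controls and 6.99, 6.70 and 6.41 in knockdowns. It rose without overlap (log2 fold change 0.37, SE 0.10, limma adjusted p = 0.012) on 142 to 276 reads per library.

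The carriers of sterol between membranes showed no called change. STARD4, a cytosolic sterol carrier and a known SREBP2 target, read 85.7, 87.2 and 87.9 RPM in controls and 87.3, 78.4 and 81.8 in knockdowns. Knockdown 1 lay within the control range, and the log2 fold change was -0.08 (95% CI -0.19 to 0.03; limma adjusted p = 0.24). After the correction for GC content and length it was -0.19 and passed (limma adjusted p = 0.0017). NPC1 and NPC2, which hand cholesterol out of the lysosome, had log2 fold changes of -0.10 (95% CI -0.25 to 0.05) and 0.00 (95% CI -0.11 to 0.12). NPC2 read 58.0, 61.2 and 57.2 RPM in controls and 57.5, 61.3 and 58.0 in knockdowns, with nearly the same range in both groups. NPC1 read 48.1, 57.8 and 54.5 RPM in controls and 51.1, 49.7 and 48.2 in knockdowns. Without control replicate 1, its lowest control, NPC1 was at -0.18 and passed (limma adjusted p = 0.028). Opposite to these genes lie C18orf8 at NPC1 (log2 fold change -0.43), ISCA2 at NPC2 (-0.22) and STARD4-AS1 at STARD4 (0.66), so their counts are uncertain.

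On the efflux side the receptors were lower and the pumps were not called. Calls in 2 of 4 genes, both lower, compare with 41.0% of all genes called in either direction and 23.5% as lower. NR1H3, which encodes LXR-alpha, read 19.1, 14.7 and 15.0 RPM in controls and 9.77, 12.3 and 10.4 in knockdowns. The groups did not overlap, and the log2 fold change was -0.58 (SE 0.11; limma adjusted p = 0.0020). It overlaps ACP2 on the opposite strand, which was higher (log2 fold change 0.35). NR1H2, which encodes LXR-beta, read 64.9, 53.0 and 60.1 RPM in controls and 41.0, 48.2 and 45.1 in knockdowns (log2 fold change -0.40, SE 0.08, limma adjusted p = 0.0021). It was -0.25 after the correction for GC content and length.

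ABCA1, the pump that loads cholesterol onto lipid-poor apolipoproteins, was well covered in both groups. It read 225, 247 and 238 RPM in controls and 238, 217 and 229.9 in knockdowns. The groups overlapped, with a log2 fold change of -0.05 (95% CI -0.16 to 0.06; limma adjusted p = 0.44). After the correction for GC content and length it was -0.16 and passed as lower (limma adjusted p = 0.0035). ABCG1, which exports sterol to HDL, had few reads, at 2.47, 2.73 and 2.44 RPM in controls and 2.20, 2.99 and 2.35 in knockdowns. Its log2 fold change was -0.03 (95% CI -0.36 to 0.30) on 49 to 123 reads per library, so a change inside that interval is not excluded.

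Within libraries, both the synthesis and the efflux genes had lower medians in the knockdown, the efflux genes through the LXR receptors. The median synthesis gene, in log2 units from the control mean, was at -0.01, 0.00 and 0.02 in controls and at -0.59, -0.60 and -0.47 in knockdowns. The median of the 4 efflux genes was at 0.05, -0.04 and -0.02 in controls and at -0.37, -0.21 and -0.25 in knockdowns, also without overlap. The fall of NR1H3 (log2 fold change -0.58) was as large as the synthesis median, and only the pumps ABCA1 and ABCG1 of the 4 were not called. Less the ABCA1 value of the same library, the synthesis median was 0.06, -0.06 and 0.01 in controls and -0.60, -0.48 and -0.43 in knockdowns. No knockdown value reached a control value, so synthesis transcripts fell relative to ABCA1 in each knockdown library. These values are without the correction for GC content and length, after which ABCA1 passed as lower (-0.16) and the synthesis median was -0.52. Less the SREBF2 value, the synthesis median was -0.09, 0.04 and 0.06 in controls and 0.39, 0.43 and 0.55 in knockdowns. SREBF2 therefore lay lower, relative to control, than the median gene of synthesis in all 3 knockdown libraries.

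**Figure D4:**
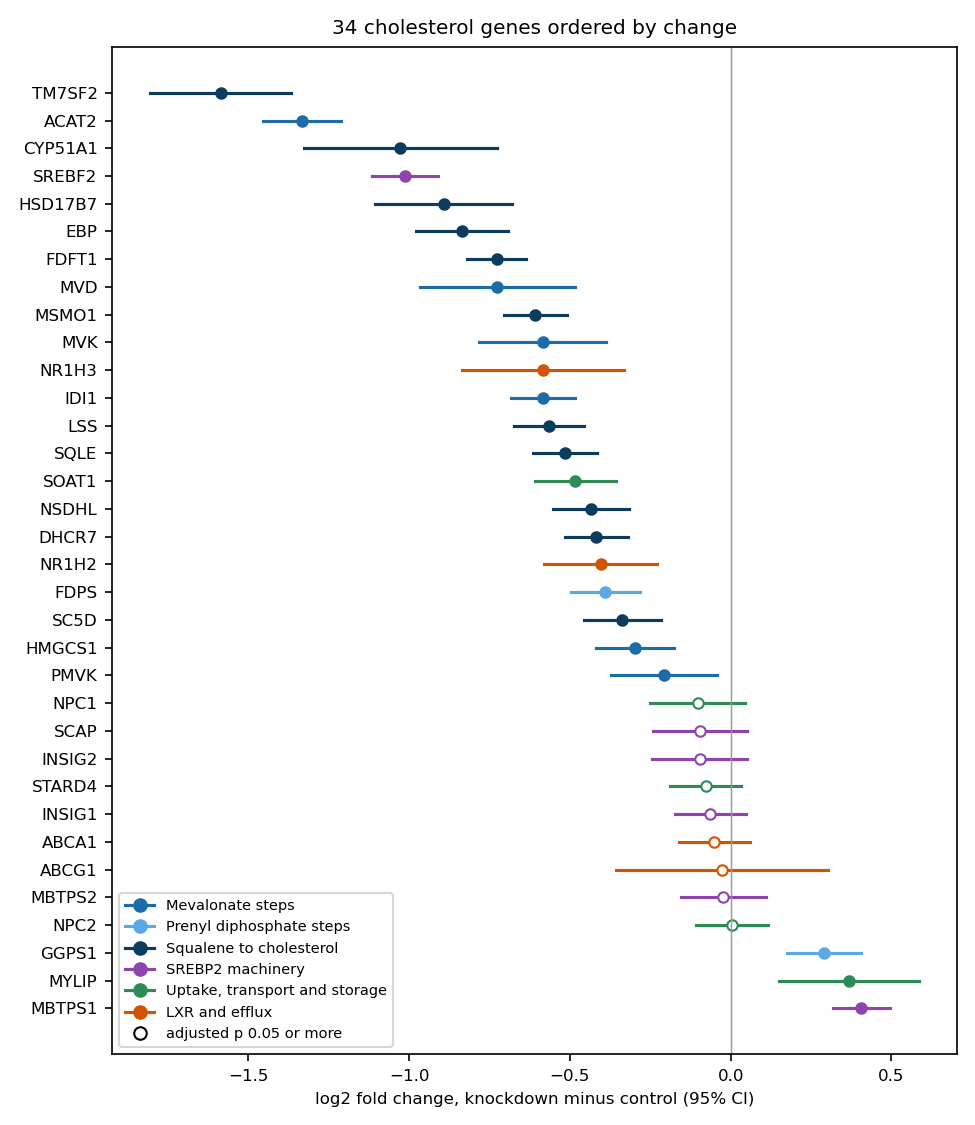
Log2 fold change of the 34 members (x axis, knockdown minus control, with 95% confidence interval from limma) ordered by size (y axis). Filled points passed an adjusted p of 0.05 and open points did not. TM7SF2 (-1.59) and ACAT2 (-1.33) mark the low end, and GGPS1, MYLIP and MBTPS1 (0.29, 0.37 and 0.41) the high end.

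A list of 49 other sterol and isoprenoid genes was read in the same fit, of which 47 were tested. Of these 11 fell, 9 rose and 27 did not pass, with a median log2 fold change of 0.02. The called share, 20 of 47, lies near the 41.0% of all genes. After the correction for GC content and length 30 of 47 were called, 16 lower and 14 higher, against 44.1% of all genes in that fit. Without that correction, of 7 partner enzymes of sterol synthesis 5 fell and 1 rose. Of 10 genes of the isoprenoid branches 1 fell and 9 did not pass. With the correction PDSS2, NUS1 and FNTA of these branches also passed as lower, and FNTB and RABGGTA as higher.

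Of this wider list the 3 largest falls were in TMEM97, SCARB1 and ERG28. SCARB1, the receptor that takes up cholesterol ester from HDL, read 71.2, 66.3 and 68.4 RPM in controls and 33.4, 34.2 and 33.6 in knockdowns. Its knockdown libraries were nearly alike, at 49.1% of control, and the log2 fold change was -1.02 (SE 0.05; limma adjusted p = 1.5e-07). TMEM97, the sigma-2 receptor, which binds NPC1, read 26.3, 24.3 and 23.8 RPM in controls and 12.5, 10.6 and 11.6 in knockdowns (log2 fold change -1.10, SE 0.08, limma adjusted p = 2.1e-06). ERG28, listed under its older name C14orf1, a scaffold of the C4-demethylation complex, read 30.0, 30.2 and 30.7 RPM in controls and 19.9, 19.9 and 21.0 in knockdowns. Its log2 fold change was -0.58 (SE 0.06; limma adjusted p = 1.8e-05), close to that of MSMO1, its partner in the complex (-0.61). ERG28 overlaps TTLL5 on the opposite strand, which fell by less (-0.34), and TMEM97 overlaps IFT20, which rose (0.29).

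The 3 largest rises were in LIPA, PLTP and LRP1. LIPA, the lysosomal acid lipase that frees cholesterol from incoming lipoproteins, read 53.7, 59.7 and 57.3 RPM in controls and 85.4, 78.8 and 84.6 in knockdowns, or 146% of control. The rise was 0.54 on the log2 scale (SE 0.05; limma adjusted p = 2.4e-05). LRP1, a large endocytic lipoprotein receptor, read 1292, 1235 and 1208 RPM in controls and 1609, 1667 and 1694 in knockdowns. It rose by 0.41 on the log2 scale (SE 0.04; limma adjusted p = 2.9e-05), without overlap. PLTP, the phospholipid transfer protein and an LXR target, averaged 37.3 ± 4.87 RPM in controls and 50.2 ± 4.07 in knockdowns (SD, n = 3; log2 fold change 0.43, SE 0.09, limma adjusted p = 0.0029). LIPA overlaps IFIT3 on the opposite strand, which was also higher (log2 fold change 0.77), and PLTP overlaps CTSA, which was not called (0.02).

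**Figure D5:**
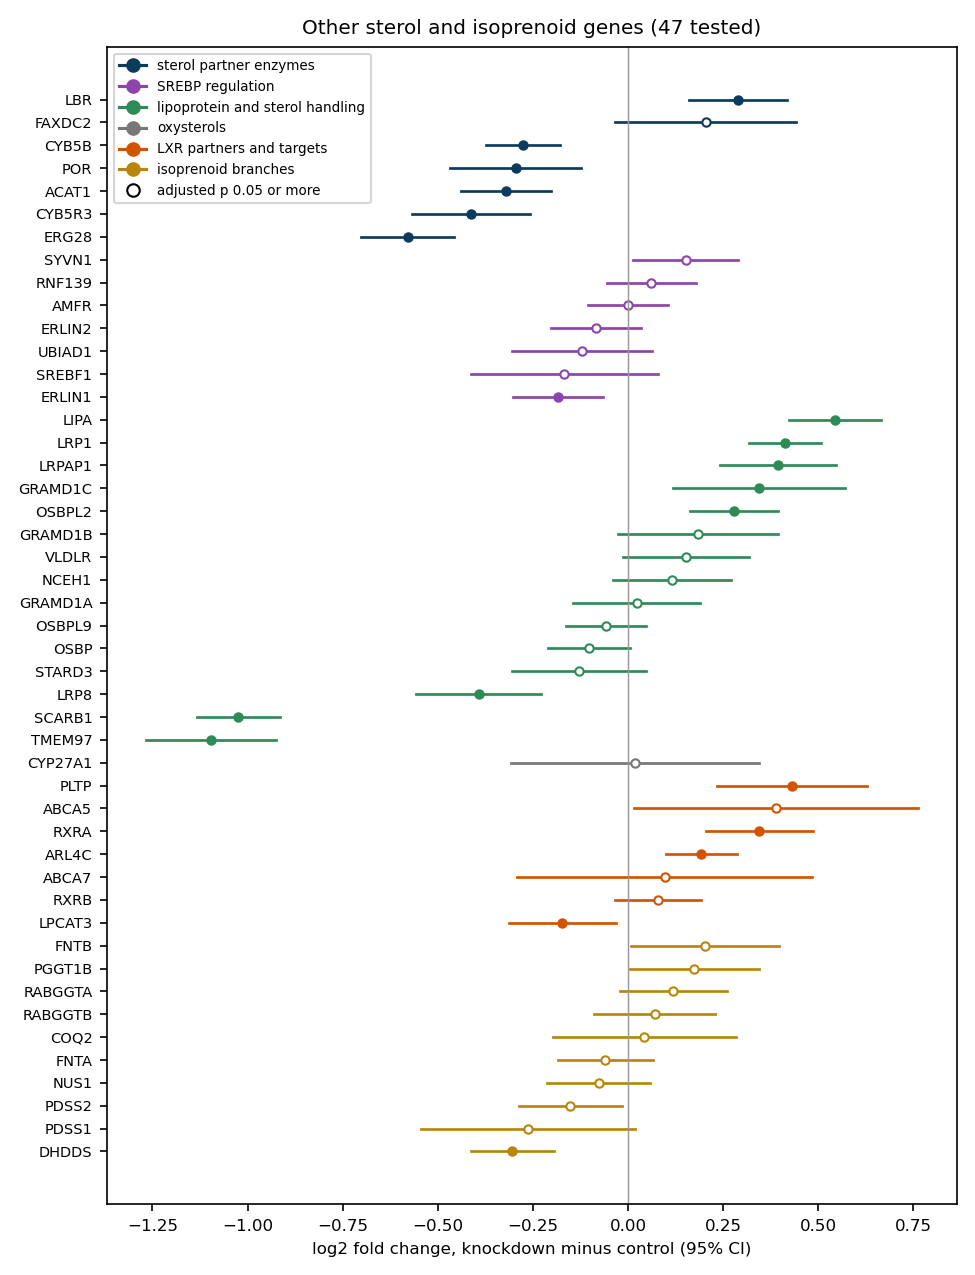
Log2 fold change of the 47 other genes tested (x axis, knockdown minus control, with 95% confidence interval from limma) by list (colour and order on the y axis). Filled points passed an adjusted p of 0.05. TMEM97 (-1.10) and SCARB1 (-1.02) stand apart on the left, and LIPA (0.54) lies farthest right.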

How the data were processed

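PolyA RNA of 6 libraries was sequenced as single reads. The authors deposited a table named for normalized counts whose values are log2: undoing an offset of 0.5 reads and an effective library size gave whole reads for 100% of values in each library, to a relative tolerance of 1e-09. Bowtie2, featureCounts and hg19 are listed per the submitters' processing notes. Strand setting and annotation release are not given in the sources used here, so genes that overlap others or have near-identical copies are uncertain.

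RPM is recovered reads over the effective size. limma 3.58.1 (R 4.3.3; lmFit, eBayes with trend, group as sole term, two-sided) was run on the deposited log2 values of the 19048 genes with a mean of at least 10 normalized reads, with Benjamini-Hochberg adjustment and a threshold of 0.05. Fold changes include the 0.5-read offset. The exact permutation test of 3 against 3 cannot go below 0.1. A floor is 3 reads and covers counting error only. The fit was tested on simulated data. Libraries of a group differed by more than sampling noise (chi-square per degree of freedom 2.83 to 11.1), so each counted as 1.

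The members and lists were chosen with earlier results of these data known, so counts and medians over them are descriptions. Named were all members, the target, and the 3 largest called changes in each direction among other pathway genes with a mean of at least 50 normalized reads. Other fits used pseudocounts of 1 and 5, other filters, scalings and variance models, thinning, a replicate block, left-out libraries and a GC and length correction, the last chosen after seeing the data.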

Additional observations from a re-analysis of the deposited data

How the results depend on the processing

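In 17 other fits the members changed numbered 24 to 27, of which 3 rose in each fit, and at an adjusted p under 0.01 they numbered 23. Synthesis genes changed numbered 18 to 19, with PMVK the one that lost its call. With a library left out, the counts were 24 to 25 members, 18 to 19 synthesis genes, 2 efflux genes, 17 to 22 other pathway genes and 5803 to 7330 of all genes. The synthesis median then ran from -0.60 to -0.54 and the efflux median from -0.31 to -0.21. An adjusted p under 0.01 left 5195 of all genes by construction. The GC and length correction called 27 members, adding INSIG2, STARD4 and ABCA1 and losing PMVK, 30 other pathway genes against 20, and 8178 of 18546 genes in all (44.1%).

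No called member changed direction in these fits, and 4 members without a call did. SCAP was 0.028 after the GC and length correction. MBTPS2 was 0.023 with quantile scaling, and -0.078 to 0.0045 over the fits that omit 1 library. NPC2 was -0.0097 when thinned and -0.025 to 0.033 over those fits. ABCG1 was 0.017 with quantile scaling, 0.0063 after the GC and length correction, and -0.16 to 0.062 over the same fits. The cause was not tested.

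Both groups carry replicate numbers 1 to 3, but libraries of equal number did not deviate together (r = -0.15, -0.18 and 0.07 across genes), so they were not treated as paired. A fit with a replicate block called 24 members, 18 synthesis genes, 2 efflux genes, 17 other pathway genes and 6454 of all genes, with medians of -0.58 for synthesis and -0.23 for efflux. Among members the block took the call of PMVK alone. Depth limits ABCG1, CYP51A1 and HSD17B7, each with under 100 reads in the lowest library.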

Other observations

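Of the 7 partner enzymes of sterol synthesis 5 fell, LBR rose and FAXDC2 was not called, against 41.0% of all genes called in either direction. Among those that fell, CYB5R3, cytochrome b5 reductase, read 272, 233 and 265 RPM in controls and 175, 207 and 195 in knockdowns (log2 fold change -0.41, SE 0.07, limma adjusted p = 0.00087). SREBF1, the gene of the related factor SREBP1, read 74.5, 52.0 and 63.4 RPM in controls and 50.2, 60.4 and 57.1 in knockdowns. Its groups overlapped, and it was not called (log2 fold change -0.17, 95% CI -0.41 to 0.08; limma adjusted p = 0.26). Without control replicate 2, its lowest control, it was -0.30 and passed (limma adjusted p = 0.012).

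DHDDS, which makes dolichol precursors, was the only gene of the isoprenoid branches called in the main fit. It read 52.9, 56.0 and 56.2 RPM in controls and 45.2, 43.6 and 44.8 in knockdowns (log2 fold change -0.30, SE 0.05, limma adjusted p = 0.00061). The prenyltransferase genes FNTA, FNTB, PGGT1B, RABGGTA and RABGGTB did not pass, with log2 fold changes from -0.06 to 0.20. After the GC and length correction FNTA (-0.18), PDSS2 (-0.19) and NUS1 (-0.17) passed as lower and FNTB (0.25) and RABGGTA (0.28) as higher. PGGT1B passed as higher with quantile scaling (0.22) and when thinned (0.25), and PDSS1 as lower without control replicate 1 (-0.36). RXRA, the partner receptor of LXR, read 59.4, 54.4 and 57.2 RPM in controls and 66.1, 77.7 and 73.8 in knockdowns. It rose by 0.35 on the log2 scale (SE 0.06; limma adjusted p = 0.0014), while its relative RXRB was not called (0.08) except after the GC and length correction (0.19). These genes were picked from the lists after their values were seen.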
